A study of Mus musculus with 12 samples.

Results

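Signalling and adhesion genes of brain inflammation, 10 in all, were followed in the hippocampus of mice with amyloid transgenes. The set holds 4 cytokine genes (Il1a, Il1b, Tnf, Il6), 2 chemokine genes (Ccl2, Cxcl10), 3 vascular adhesion genes (Icam1, Vcam1, Selp) and Nfkbia, the gene of an NF-kB inhibitor. They were chosen by symbol, with no threshold, and all 10 are among the 24736 symbols of the deposited total RNA table. The mice were 4 months old and male: 3 carried the APPswe and PSEN1dE9 transgenes, called APP/PS1, and 3 were wild-type (WT) littermates without them. Each mouse gave 1 stranded total RNA library from hippocampus, and no group had a treatment. The WT libraries carry the replicate numbers 1, 2 and 4 and the APP/PS1 libraries 1, 2 and 3. The labels do not name the background strain or the promoter of the transgenes.

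In resting brain, transcripts of interleukin-1, tumour necrosis factor and interleukin-6 are scarce, and microglia are their main source once they are activated. Interleukin-1 and tumour necrosis factor bind receptors that release NF-kB, a transcription factor held in the cytoplasm by IkB-alpha, the product of Nfkbia. NF-kB then drives chemokines that attract leukocytes, adhesion molecules on endothelium that capture them, and Nfkbia itself, which closes the loop. P-selectin lets leukocytes roll along the vessel wall, while ICAM-1 and VCAM-1 hold them firmly through integrins.

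Values are given as CPM, estimated counts scaled to a common, TMM-normalized library total. The libraries summed to 120958765 to 146904552 estimated counts. Judged from the low values, each sequenced fragment appears as about 4 estimated counts, so 1 fragment corresponds to 0.0272 to 0.0338 CPM, and a count of 0 allows up to 3 fragments, or 0.0815 to 0.101 CPM, by counting error alone. App, the gene with transgene sequence, had means of 1550 CPM in WT and 3194 CPM in APP/PS1 with no overlap between the groups. The 8 hippocampal neuron markers summed to 2970 to 3240 CPM in WT and 2950 to 3150 CPM in APP/PS1, and none was at 0. Most of each sum was Snap25, at 1920 to 2150 CPM in WT and 1900 to 2160 CPM in APP/PS1. Prox1, Wfs1, Neurod6, Fibcd1, Zbtb20 and Spink8 were each lowest in APP/PS1 replicate 3, where Rbfox3 and Snap25 were highest. Neurod6 stood at 123 CPM there, against 216 to 262 CPM in the other libraries. APP/PS1 replicate 3 stood apart from the rest: the mean correlation of its log2 CPM with the other libraries was 0.954, against 0.980 to 0.981 for each of the other 5.

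Whether a gene could be judged was set by its depth. A gene was called too low to judge where the expression filter removed it, or where the group with the higher mean held under 10 fragments per library. By this rule Il1b, Tnf, Il6, Ccl2 and Cxcl10 were too low to judge, and Il1a, Icam1, Vcam1, Selp and Nfkbia were not. The filter, which asks for at least 0.077 CPM in at least 3 libraries, removed Tnf, Il6 and Ccl2. Il1b passed it with 3 WT libraries and 1 APP/PS1 library over that level. Selp passed through its 3 APP/PS1 libraries only, so a Selp difference between the groups was built into its passing.

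**Figure D1:**
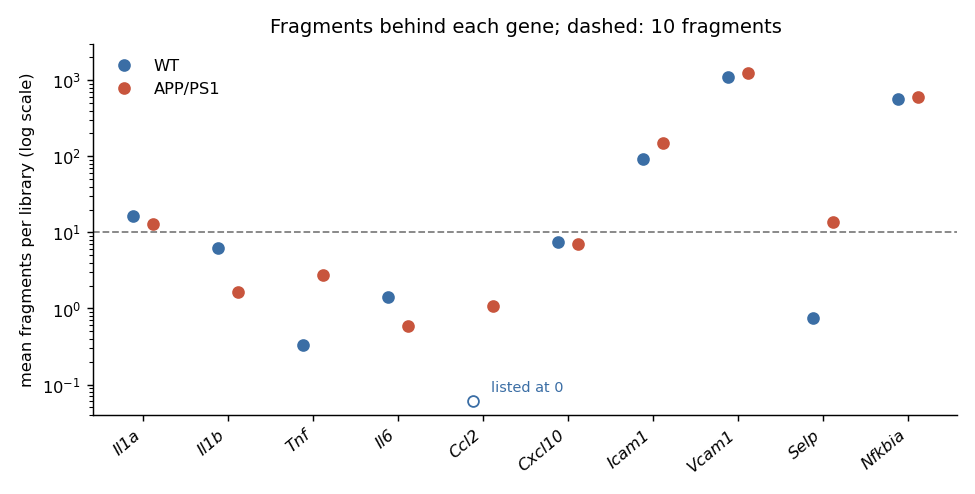
Mean number of fragments per library (vertical log axis, estimated counts divided by 4) for each of the 10 genes in WT (blue) and APP/PS1 (red), 3 libraries each. The dashed line marks 10 fragments; Il1b, Tnf, Il6, Ccl2 and Cxcl10 lie below it in both groups, and the open circle is a gene listed at 0.

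Among the cytokines, Il1a, which encodes interleukin-1 alpha (chromosome 2, 129299609 to 129310186, GRCm38, the same build as mm10), had the most fragments behind it. It stood at 0.592, 0.536 and 0.380 CPM in WT replicates 1, 2 and 4 and at 0.490, 0.466 and 0.234 CPM in APP/PS1 replicates 1, 2 and 3. The groups overlapped, and the lowest library was APP/PS1 replicate 3. The log2 fold change of Il1a, APP/PS1 over WT, was -0.34 (SE 0.39), and -0.08 without APP/PS1 replicate 3. The noncoding gene Gm14023 lies across part of Il1a and stood at 0.0659 to 0.30 CPM. No source used here gives the strand setting of the counting, so reads of such overlapping pairs cannot be told apart.

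Il1b encodes interleukin-1 beta, which is released after cleavage by inflammasome caspases (chromosome 2, 129364569 to 129371164). It was listed with 23, 24 and 27 estimated counts in WT replicates 1, 2 and 4 and with 10, 6 and 4 in APP/PS1 replicates 1, 2 and 3. Scaled to depth these were 0.189, 0.189 and 0.183 CPM in WT and 0.0844, 0.0444 and 0.0293 CPM in APP/PS1. All 3 APP/PS1 libraries lay under all 3 WT libraries, and the WT values were nearly equal. The log2 fold change was -1.82 (SE 0.52), which edgeR's quasi-likelihood test gave an unadjusted p of 0.0104 and an adjusted p of 0.887 over all 18060 genes tested. Summed over libraries this is 5 fragments in APP/PS1 against 18.5 in WT, a ratio of 0.274 with a 95% exact counting interval of 0.0798 to 0.762. Such intervals cover counting error only. The antisense gene Il1bos overlaps Il1b and was listed at 0.0747 to 0.110 CPM in WT and 0.0074 to 0.0585 CPM in APP/PS1. These values are mostly under the level of 3 fragments, and it did not pass the filter. The 8 microglial markers summed to 198 to 219 CPM in WT and 141 to 226 CPM in APP/PS1, with the lowest sum in APP/PS1 replicate 3, where Il1a and Il1b were also lowest. In bulk tissue fewer cells of a type and less RNA per cell cannot be told apart. The part of microglial abundance in these values was not tested. Without APP/PS1 replicate 3 the log2 fold change of Il1b was -1.54.

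Tnf, the gene of tumour necrosis factor (chromosome 17, 35199367 to 35202007), had 0, 4 and 0 estimated counts in WT replicates 1, 2 and 4 and 20, 13 and 0 in APP/PS1 replicates 1, 2 and 3. APP/PS1 replicates 1 and 2 were the highest, and APP/PS1 replicate 3 was at 0 like 2 of the WT libraries. The totals, 8.25 fragments against 1, give a ratio of 8.37 with a counting interval of 1.13 to 370. Il6 (chromosome 5, 30013114 to 30019975), the interleukin-6 gene, had 15, 0 and 2 estimated counts in WT and 0, 0 and 7 in APP/PS1. Its ratio was 0.418 with a counting interval of 0.0311 to 2.98, and each group had libraries at 0. The Il6 interval includes 1. That of Tnf lies above 1, yet it leaves out the spread among mice, and APP/PS1 replicate 3 was at 0. No direction was read for either gene.

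The chemokine gene Ccl2, whose product draws monocytes (chromosome 11, 82035577 to 82037452), was listed at 0 in all 3 WT libraries and with 0, 5 and 8 estimated counts in APP/PS1 replicates 1, 2 and 3. That is 3.25 fragments in all, and no fold is given. Cxcl10, an interferon-induced chemokine that attracts T cells (chromosome 5, 92346638 to 92348889), stood at 0.140, 0.520 and 0.0544 CPM in WT replicates 1, 2 and 4 and at 0.270, 0.148 and 0.234 CPM in APP/PS1 replicates 1, 2 and 3. WT held both its highest and its lowest library. The Cxcl10 log2 fold change was -0.13 (SE 0.80), and its sign turned without WT replicate 2 (1.17), without APP/PS1 replicate 2 (0.09) and with limma-voom on all libraries (0.43). Cxcl10 lies inside the span of Art3, which was listed at 1.03 to 1.87 CPM.

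**Figure D2:**
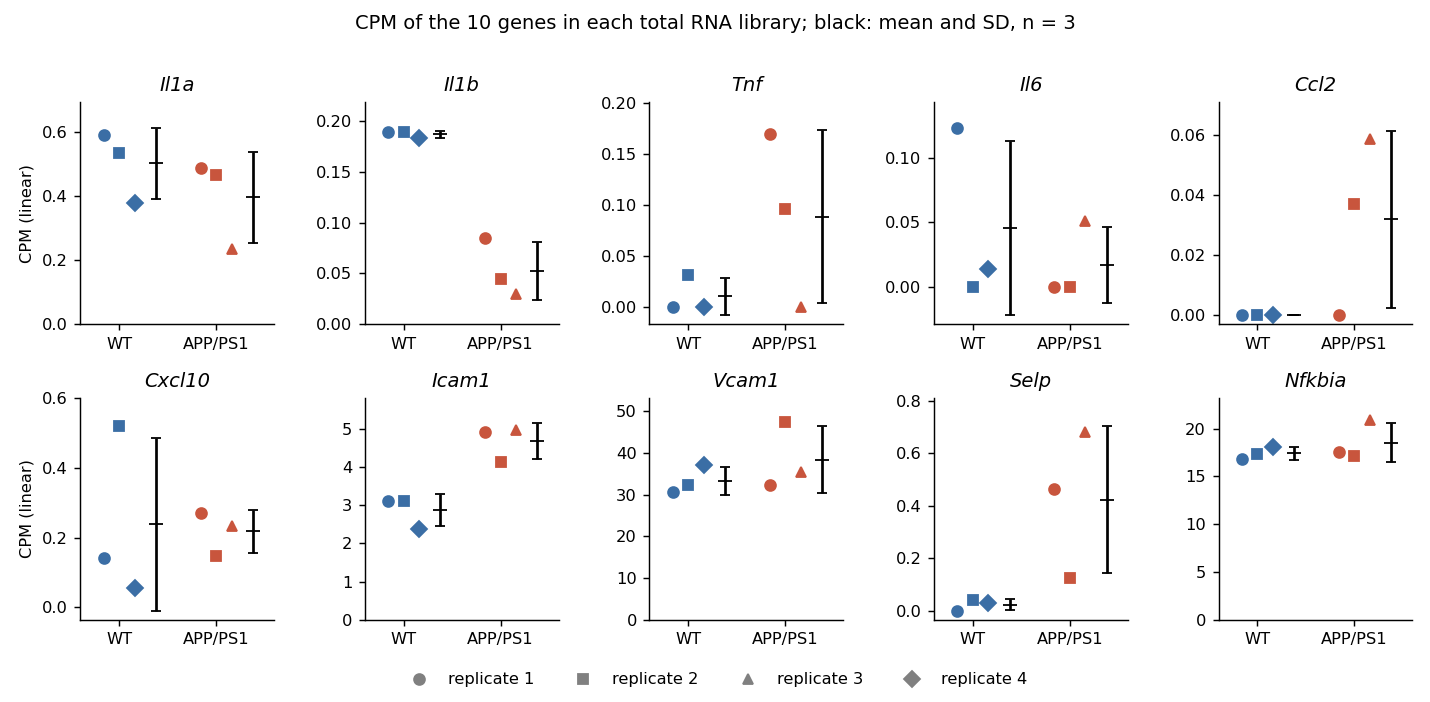
CPM (linear axis, own scale per panel) of each of the 10 genes in the 3 WT (blue) and 3 APP/PS1 (red) libraries, with marker shapes for replicate numbers and black bars for the mean and SD. Icam1 and Selp show every APP/PS1 library above every WT library, Il1b the reverse, and the other 7 genes overlap.

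Of the adhesion molecules, Icam1 was higher in each APP/PS1 library than in any WT library. Icam1 (chromosome 9, 21015940 to 21028814) encodes the ligand of the leukocyte integrin LFA-1 and is made by endothelium, astrocytes and microglia when stimulated. It stood at 3.11, 3.10 and 2.38 CPM in WT replicates 1, 2 and 4 and at 4.92, 4.12 and 4.96 CPM in APP/PS1 replicates 1, 2 and 3. The lowest APP/PS1 library lay above the highest WT library by more than either group's SD. The WT mean was 2.86 ± 0.42 CPM and the APP/PS1 mean 4.67 ± 0.48 CPM (SD, n = 3 in both), and the log2 fold change was 0.70 (SE 0.17). With edgeR's quasi-likelihood test the unadjusted p was 0.00553, and the adjusted p was 0.887, so Icam1 did not pass over all genes. With 1 library left out at a time the Icam1 log2 fold change ran from 0.59 to 0.79. About 151 fragments per APP/PS1 library lay behind it.

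Icam1 stands in a row of related genes on chromosome 9. Icam4 begins 618 bp after it and Icam5, which encodes the neuronal adhesion molecule telencephalin, 3224 bp after it. Icam5 stood at 171, 169 and 159 CPM in WT replicates 1, 2 and 4 and at 197, 160 and 83.6 CPM in APP/PS1 replicates 1, 2 and 3. Thus Icam5 was highest in APP/PS1 replicate 1 and lowest in APP/PS1 replicate 3, where Icam1 stood at nearly equal levels, 4.92 and 4.96 CPM. The part of neighbouring transcription in the Icam1 values was not tested. Icam4 was at 0.403 to 0.639 CPM in WT and 0.322 to 0.473 CPM in APP/PS1.

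Vcam1, whose product binds the integrin VLA-4 and is carried by endothelium and choroid plexus epithelium (chromosome 3, 116110020 to 116129688), stood at 30.6, 32.2 and 37.0 CPM in WT replicates 1, 2 and 4. In APP/PS1 replicates 1, 2 and 3 it stood at 32.2, 47.5 and 35.4 CPM. Only APP/PS1 replicate 2 lay outside the WT range. The Vcam1 log2 fold change was 0.21 (SE 0.16), and it was 0.02 without that library. APP/PS1 replicate 2 also had the highest sum of 7 choroid plexus epithelium markers, 4030 CPM against 1500 to 1800 CPM in WT and 1800 and 2430 CPM in APP/PS1 replicates 1 and 3. The part of choroid plexus tissue in the Vcam1 value was not tested.

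Selp, the P-selectin gene (chromosome 1, 164115264 to 164150026), had the widest ratio between the groups on few fragments. It was listed with 0, 5 and 4 estimated counts in WT replicates 1, 2 and 4 and with 55, 17 and 93 in APP/PS1 replicates 1, 2 and 3. The CPM values were 0, 0.0394 and 0.0272 in WT and 0.464, 0.126 and 0.681 in APP/PS1. The groups did not overlap, yet APP/PS1 replicate 2 lay nearer to WT than to the other 2 APP/PS1 libraries. Over all libraries there were 41.25 fragments in APP/PS1 and 2.25 in WT, a ratio of 18.6 with a counting interval of 5.14 to 133. The log2 fold change was 4.18 (SE 0.99), with an unadjusted p of 0.00451 and an adjusted p of 0.887 in edgeR's test. DESeq2 gave Selp an adjusted p of 0.0413 with the estimated counts as deposited, a threshold passed by 0.117% of the genes it adjusted. With the estimated counts divided by 4, a setting added after the data were seen, DESeq2's adjusted p for Selp was 0.690. The Selp call therefore held in 1 of the settings tried and not where fragments were the unit.

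P-selectin is stored in endothelium and in platelets. The 5 platelet markers summed to 3.33 to 3.69 CPM in WT and to 3.69, 3.42 and 4.92 CPM in APP/PS1 replicates 1, 2 and 3, with none at 0 in all libraries. The 8 endothelial markers summed to 210 to 237 CPM in WT and 202, 218 and 244 CPM in APP/PS1. Both sums were highest in APP/PS1 replicate 3, as was Selp, and both overlapped between the groups. Of the platelet markers 5 of 5 had positive log2 fold changes, against 52.3% of all tested genes, with a median of 0.41. Each of them overlapped between the groups. Of the endothelial markers 3 of 8 were positive, with a median of -0.0042. Ly6c1 was lower in APP/PS1 without overlap (-0.28, SE 0.09), as were 4.76% of all tested genes, and Cldn5 had 0.32 (SE 0.15) with overlap. F5, the coagulation factor V gene that begins 1809 bp after Selp, stood at 47.5, 50 and 44.8 CPM in WT and at 54.9, 113 and 65.6 CPM in APP/PS1 replicates 1, 2 and 3. The highest F5 library, APP/PS1 replicate 2, was the lowest APP/PS1 library for Selp. The part of platelets, endothelium or neighbouring transcription in the Selp values was not tested.

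Nfkbia (chromosome 12, 55489409 to 55492647) is induced by NF-kB and also by glucocorticoids. It stood at 16.8, 17.3 and 18.1 CPM in WT replicates 1, 2 and 4 and at 17.6, 17.1 and 20.9 CPM in APP/PS1 replicates 1, 2 and 3. The groups overlapped, and APP/PS1 replicate 3 alone lay above the WT range. The Nfkbia log2 fold change was 0.09 (SE 0.11), and -0.01 without that library. With 604.25 fragments per APP/PS1 library, Nfkbia was among the best measured of the 10.

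**Figure D3:**
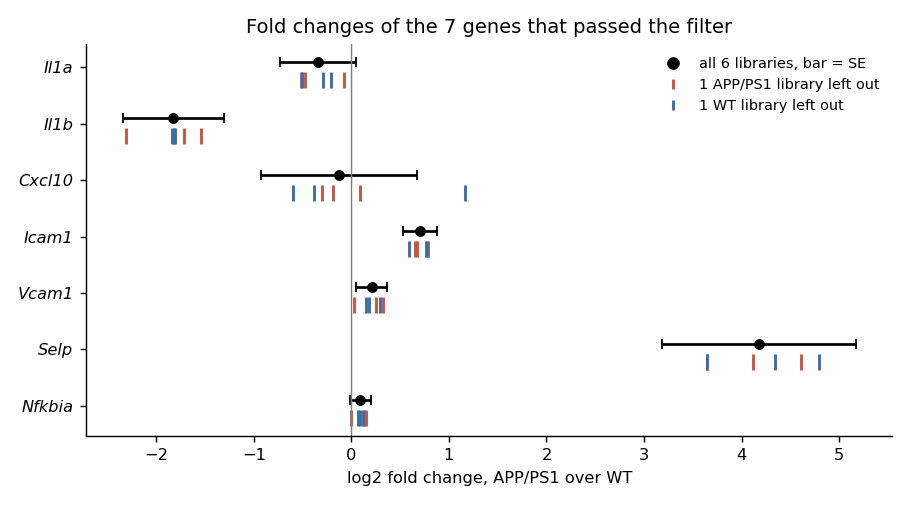
Log2 fold change, APP/PS1 over WT, of the 7 genes that passed the filter: black points with SE bars from all 6 libraries, and ticks for fits with 1 APP/PS1 (red) or 1 WT (blue) library left out. The ticks of Icam1, Selp, Il1b, Il1a and Vcam1 stay on 1 side of 0, while those of Cxcl10 and Nfkbia fall on both.

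Of the 10 genes 7 were tested, and 0 of the 7 passed edgeR's adjusted threshold of 0.05, where 0.00554% of all 18060 genes did, and DESeq2 passed 1, Selp. An unadjusted p under 0.05 was reached by Icam1, Selp and Il1b, against 3.42% of all genes, 1.9% with APP/PS1 higher and 1.52% with APP/PS1 lower. The groups did not overlap for the same 3 genes, against 10.4% of all genes, 5.63% with APP/PS1 higher and 4.76% with APP/PS1 lower. Because Selp and Il1b entered the test through the group where they were high, this count gives the set no support. An exact two-sided permutation test of 3 against 3 libraries cannot go below p = 0.1, the value that groups without overlap always give, so it adds nothing for these genes. Levels of different genes are not compared, since no transcript lengths were used.

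The upstream sequences of these genes were searched for the kappaB motif, which NF-kB binds, and for other motifs. RefSeq promoter windows (GRCm38.p6, 250 bases before to 50 after the transcript start) were matched for 8 of the 10 genes. The consensus kappaB motif, searched on both strands, was found in 3 of the 8, Il6, Cxcl10 (at 2 places) and Nfkbia, and in 4.51% of 32851 windows of all genes. A 9-base run, GGAAATTCC, was picked after these windows were seen and overlaps the kappaB motif in Cxcl10 and Nfkbia. It lies in the windows of Icam1, Cxcl10 and Nfkbia and in 0.317% of all windows, both strands counted. Because the run was picked from these windows, the share of all windows lends no weight to these matches. The TGANTCA motif bound by AP-1 factors was in Il1a, Il6, Cxcl10 and Selp and in 7.81% of all windows. TTCNNNGAA, also searched, was in 1 of the 8 windows and 8.3% of all. In Icam1 it lay 42 to 34 bases before the start. TATAAA was in 5 of the 8 windows and 13.6% of all. It began 32, 31 and 29 bases before the start in Il1a, Il1b and Tnf. In Icam1 and Nfkbia it lay after the start, in Nfkbia on the opposite strand. The 170 bases before the start follow for Icam1 and Selp, whose groups separated, and for Nfkbia and Cxcl10, whose groups overlapped, each read 5′ to 3′ along the gene. Capitals mark kappaB matches and GGAAATTCC, and in Selp the TGANTCA match. The TTCNNNGAA match of Icam1 and the TGANTCA match of Cxcl10 are left in lower case.
Icam1 (chr9:21015770-21015939, plus strand): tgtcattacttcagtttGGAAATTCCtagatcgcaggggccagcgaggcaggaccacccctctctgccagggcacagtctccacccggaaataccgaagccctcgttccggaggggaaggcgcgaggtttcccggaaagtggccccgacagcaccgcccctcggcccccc
Selp (chr1:164115094-164115263, plus strand): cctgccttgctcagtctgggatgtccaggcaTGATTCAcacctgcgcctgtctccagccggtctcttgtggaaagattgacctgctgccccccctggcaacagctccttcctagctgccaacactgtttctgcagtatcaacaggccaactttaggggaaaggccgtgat
Nfkbia (chr12:55492648-55492817, minus strand): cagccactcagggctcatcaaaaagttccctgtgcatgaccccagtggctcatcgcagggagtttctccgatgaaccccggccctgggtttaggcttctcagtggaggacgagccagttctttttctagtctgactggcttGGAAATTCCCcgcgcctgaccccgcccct
Cxcl10 (chr5:92348890-92349059, minus strand): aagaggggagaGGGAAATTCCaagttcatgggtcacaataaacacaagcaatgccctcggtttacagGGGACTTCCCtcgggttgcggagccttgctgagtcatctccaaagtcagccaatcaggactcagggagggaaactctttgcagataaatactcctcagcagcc
The Icam1 run lies 153 to 145 bases before the start, the Nfkbia run 29 to 21 and the first Cxcl10 run 158 to 150. These matches describe letters and not bound sites. Icam1 and Nfkbia hold the same 9 bases, and the part of NF-kB in the values of either gene was not tested.

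The receptors, signalling proteins and relatives of the 10 genes were described from 6 lists. In these lists 75 of 84 entries were tested. With all 6 libraries or with any 1 left out, 0 passed the adjusted threshold in either direction. Over all tested genes the median log2 fold change was 0.01, with 52.3% positive. Without overlap, APP/PS1 was higher for 3 TNF receptor genes and for 1 gene each of the chemokine and NF-kB lists. It was lower for 1 gene each of the interleukin-6, adhesion and NF-kB lists, and 0 interleukin-1 genes separated. Over all tested genes 5.63% were higher and 4.76% lower without overlap. No result about the lists was read from these separations. In the interleukin-1 list 16 of 17 genes were tested, 6 positive and 10 negative, with a median of -0.07, or -0.03 without WT replicate 1. The smallest p among its negative genes belonged to Il33, an alarmin of glia, at -0.49 (SE 0.24). Among its positive genes it belonged to Il18bp, a soluble trap for interleukin-18, at 0.23 (SE 0.23). Il1r1, the signalling receptor for both interleukin-1 forms, stood at 22.3 ± 1.37 CPM in WT and 22.5 ± 3.10 CPM in APP/PS1. Il1rn, the receptor antagonist, was listed at 0 in all 6 libraries.

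The TNF receptor list had 8 of 11 genes positive and a median of 0.13, or 0.05 without APP/PS1 replicate 3. Adam17, the protease that releases TNF from the membrane, was the lowest in p, with 21.2, 19.6 and 19.1 CPM in WT replicates 1, 2 and 4 against 22.7, 23.1 and 26.6 CPM in APP/PS1 replicates 1, 2 and 3. Its unadjusted p was 0.0293 and its adjusted p 0.887 in edgeR's test. The negative gene with the smallest p was Tab2, an adaptor of the kinase TAK1, with -0.07 (SE 0.08). The interleukin-6 list had 3 of 7 positive and a median of -0.03. Without WT replicate 1 this became 5 of 7 and 0.04, and without WT replicate 2 it was 2 of 7. The median was -0.05, -0.0086 and -0.01 without APP/PS1 replicate 2, APP/PS1 replicate 3 and WT replicate 4. Socs3, a feedback inhibitor of that receptor, stood at 1.93 ± 0.28 CPM in WT and 1.46 ± 0.17 CPM in APP/PS1 with no overlap, and Tyk2, a kinase, had a log2 fold change of 0.10 (SE 0.15).

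Of 17 other chemokines and chemokine receptors 10 were tested, 7 of them positive, with a median of 0.19. The median was 0.08 without APP/PS1 replicate 2, with 5 of 10 positive, 0.11 without APP/PS1 replicate 3, 0.12 without WT replicate 4 and 0.34 without WT replicate 2. Cxcl1, a neutrophil attractant, stood at 0.164, 0.0946 and 0.0544 CPM in WT replicates 1, 2 and 4 and at 0.203, 0.333 and 0.359 CPM in APP/PS1 replicates 1, 2 and 3. The Cxcl1 groups did not overlap, its log2 fold change was 1.52 (SE 0.53), and its adjusted p was 0.887 in edgeR's test. With a mean of 39.3 estimated counts in APP/PS1, under 10 fragments, Cxcl1 is too low to judge by the rule above. Cx3cl1, the neuronal ligand of the microglial receptor, had -0.26 (SE 0.25). Ccl3, Ccl4, Ccl7, Cxcl2, Cxcl9, Cxcl11 and Cxcr3 were removed by the filter.

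Of 16 adhesion partners 15 were tested, 6 positive and 9 negative, with a median of -0.04. The median ran from -0.11 without APP/PS1 replicate 1 to -0.0058 without APP/PS1 replicate 2, and was -0.08, -0.06 and -0.08 without APP/PS1 replicate 3, WT replicate 1 and WT replicate 2. Sele, the gene of E-selectin, was the positive one with the smallest p. It stood at 0.0329, 0 and 0.0883 CPM in WT replicates 1, 2 and 4 and at 0.515, 0 and 0.278 CPM in APP/PS1 replicates 1, 2 and 3. The Sele groups overlapped at 0, its 2 highest libraries were the 2 that were highest for Selp, and its APP/PS1 mean too was under 10 fragments per library. Cd34, a surface sialomucin of endothelium, stood at 34.6, 37.4 and 36.4 CPM in WT and 32.8, 29.9 and 24.3 CPM in APP/PS1, with no overlap and an unadjusted p of 0.0353. Selplg, the ligand of P-selectin on leukocytes and microglia, had a log2 fold change of -0.47 (SE 0.25).

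The NF-kB list had 11 of 16 genes positive and a median of 0.03. Without APP/PS1 replicate 3 it had 7 of 16 positive and a median of -0.0098. The median was 0.08 without APP/PS1 replicate 2 and again without WT replicate 4. Relb, a subunit of the alternative pathway, stood at 5.21, 4.48 and 4.45 CPM in WT and 3.70, 3.93 and 2.88 CPM in APP/PS1, with no overlap and an unadjusted p of 0.0440. Ikbkb, the kinase that marks IkB-alpha for breakdown, had 0.16 (SE 0.09). Rela, which encodes the p65 subunit, stood at 20.7 ± 0.38 CPM in WT and 22.3 ± 3.20 CPM in APP/PS1. Tnfaip3, the A20 feedback inhibitor, had a log2 fold change of -0.09 (SE 0.11), on the other side of 0 from Nfkbia.

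**Figure D4:**
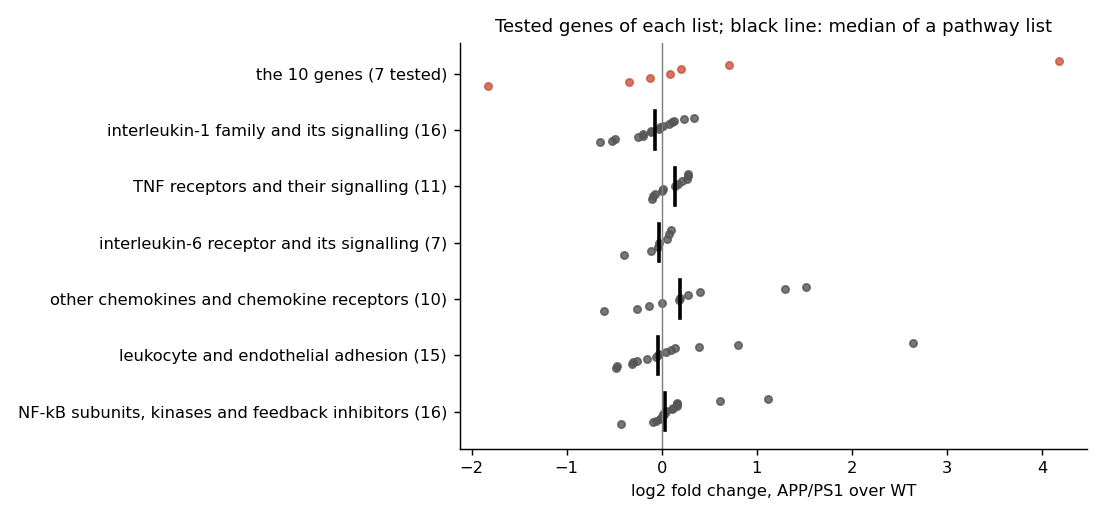
Log2 fold change, APP/PS1 over WT (horizontal axis), of each tested gene of the 10 (red) and of 6 pathway lists (grey, number tested in brackets), with a black line at each pathway list's median. With all 6 libraries the medians lie between -0.07 and 0.19, while Selp at 4.18 and Il1b at -1.82 are the outermost of the red points.

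Cells that could carry these transcripts were read from marker sums. The 7 neutrophil markers summed to 0.946 to 1.70 CPM in WT and 0.496 to 2.40 CPM in APP/PS1, with Ly6g at 0 in 5 libraries. The 8 lymphocyte markers summed to 0.922 to 1.25 CPM and 0.346 to 1.08 CPM, with Cd3d at 0 in all libraries. Mural cell markers summed to 232 to 268 CPM and 203 to 255 CPM, perivascular macrophage markers to 10.9 to 17.2 CPM and 9.31 to 23.2 CPM, and meningeal fibroblast markers to 168 to 284 CPM and 146 to 416 CPM, in WT and APP/PS1. Astrocyte markers summed to 1270 to 1450 CPM and 1150 to 1550 CPM, and red blood cell markers to 173 to 348 CPM and 185 to 536 CPM. All of these sums overlapped between the groups. The immediate early gene sum did not overlap. It was 630 to 746 CPM in WT and 584, 535 and 355 CPM in APP/PS1 replicates 1, 2 and 3. Egr1 and Arc made up most of each sum. Fos, Junb, Egr1, Arc and Nr4a1 were lower in APP/PS1 without overlap, as were 4.76% of all tested genes. Fosb, Egr2, Npas4, Dusp1 and Ier2 overlapped. Dusp1 (35.3 CPM) and Ier2 (8.87 CPM) were highest in APP/PS1 replicate 3, where the sum was lowest. The choroid plexus epithelium list had positive log2 fold changes for 7 of 7 markers, against 52.3% of all tested genes, with a median of 0.71. Folr1, Kl, Clic6, Prlr and Slc4a5 did not overlap between the groups, as did 5.63% of all tested genes with APP/PS1 higher. The gap was narrow in APP/PS1 replicate 1 (Kl 110 CPM against up to 105 CPM in WT) and widest in APP/PS1 replicate 2 (Kl 244 CPM). The part of either list in the Icam1, Selp and Il1b values was not tested.

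**Figure D5:**
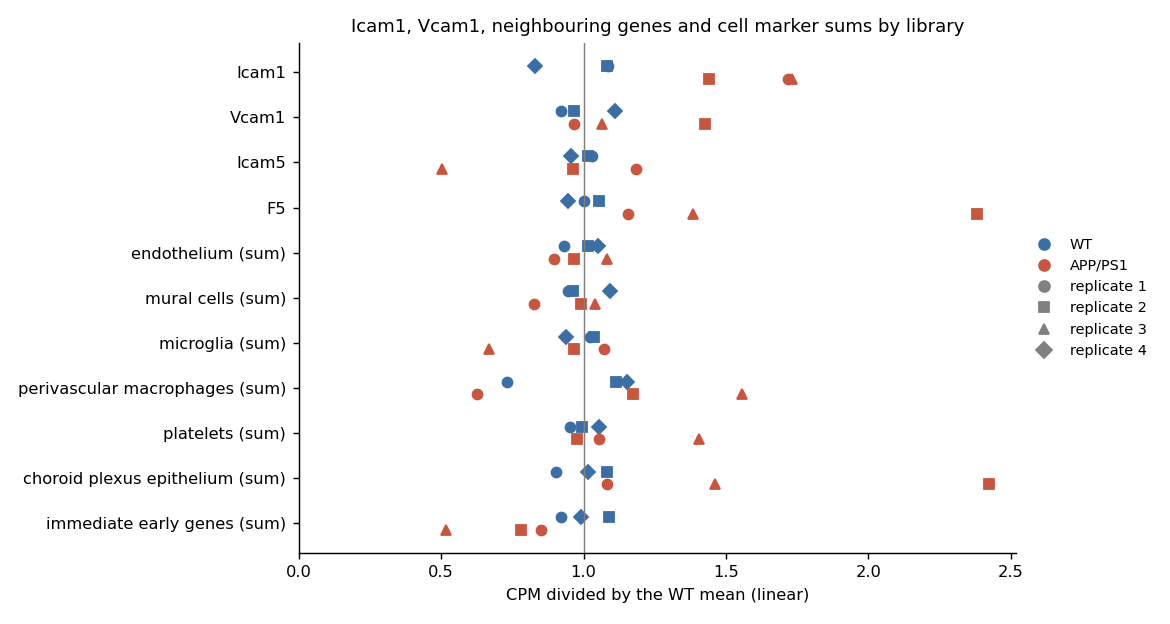
CPM divided by the WT mean (linear horizontal axis) in each library for Icam1, Vcam1, the neighbouring genes Icam5 and F5, and summed marker lists; colours show genotype and shapes replicate numbers. Icam1 and F5 are separated with APP/PS1 higher and the immediate early gene sum with APP/PS1 lower, and the other rows overlap. Vcam1, F5 and the choroid plexus sum share their highest library, APP/PS1 replicate 2.

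The genes whose log2 CPM ran most like each tested gene over the 6 libraries are given as a description only, since 6 points allow close matches by number alone. For Icam1 they were Dvl2 (Pearson r = 0.990) and Cln3 (r = 0.984), and 87 of 14625 genes with a mean of at least 1 CPM had r over 0.9. For Selp they were Casd1 (r = 0.986) and Gcdh (r = 0.985), for Vcam1 Gar1 (r = 0.993) and Cep63 (r = 0.992), and for Nfkbia Gpr137c (r = 0.998) and Zfp784 (r = 0.997). For Il1a they were Fcgr3 and C1ql2 (r = 0.994 for both), for Il1b Pcdha1 (r = 0.989) and Cd300c2 (r = 0.988), and for Cxcl10 1700109K24Rik (r = 0.960) and Gm5859 (r = 0.951). Nfkbia had 1183 genes over 0.9 and Cxcl10 24.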

How the data were processed

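Total RNA libraries of hippocampus from 3 APP/PS1 and 3 WT mice were read from 1 table of whole-number estimated counts per gene symbol, as deposited. Per the submitters' processing notes HISAT2, StringTie and DESeq were used with build mm10; no source used here gives versions, the counting step, the annotation or the strand setting. The small RNA table was not used. The most frequent low value was 4, which was taken as the worth of 1 fragment.

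Genes were tested with edgeR 4.0.16 (R 4.3.3) by the quasi-likelihood test, TMM scaling, the default expression filter (18060 of 24736 symbols kept) and Benjamini-Hochberg adjustment over all genes kept, threshold 0.05. SE was derived from the fold change and F. The biological coefficient of variation was 26.5%, and counting error adds to the spread of genes with few fragments. Likeness between genes used log2(CPM + 0.1). Alternatives used DESeq2 1.42.0, limma 3.58.1, other scalings and filters, a replicate block and each library left out. The procedure was run on simulated counts with known fold changes. They were drawn without the worth of about 4 estimated counts per fragment, so they do not speak for genes with few fragments. Coordinates and promoters come from RefSeq, assembly GRCm38.p6.

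The 10 genes and all lists were chosen with earlier results of these data known. Named genes were the 10, the smallest p per direction of each pathway list, and the 2 genes most like each tested gene. Il1r1, Il1rn, Rela, Tnfaip3 and Selplg, and the neighbouring genes, were chosen after their values were seen.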

Additional observations from a re-analysis of the deposited data

How the results depend on the processing

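The count of all genes past edgeR's adjusted threshold was 1. It was 24 with DESeq2, 14 with DESeq2 on estimated counts divided by 4 (added after seeing the data), and ran from 0 without WT replicate 1 or 2 to 6 without APP/PS1 replicate 1, where 371 and 345 genes still had an unadjusted p under 0.05 in the fits that called 0. It was 5 with APP/PS1 replicate 3 left out and 4 with WT replicate 4 left out. The count among the 10 genes was 0 in all settings but DESeq2, where it was 1, Selp (log2 fold change 4.24). Icam1, Selp, Il1b, Il1a and Vcam1 kept their direction in every setting that tested them. Cxcl10, -0.13 with all libraries, was 0.43 with limma-voom and, with 1 library left out, ran from -0.60 to 1.17, above 0 for APP/PS1 replicate 2 (0.09) and WT replicate 2 (1.17). Nfkbia, 0.09 with all, ran from -0.0087 to 0.15, below 0 for APP/PS1 replicate 3; the cause was not tested. Over the settings the adjusted p of Icam1 ran from 0.127 with DESeq2 to 0.995. With DESeq2 on estimated counts divided by 4 it was 0.684.

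Replicate numbers 1 and 2 occur in both genotypes, and nothing in the labels ties them. Same-numbered libraries' deviations correlated at 0.12 and -0.04. With the replicate number as a block 2 genes passed, 0 of the 10 among them, and the log2 fold change of Icam1 was 0.54.

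Depth limited Il1b, Tnf, Il6, Ccl2, Cxcl10 and Selp, each under 10 fragments per library in at least 1 group. The stricter filter and, in edgeR, the division by 4 left Il1b, Cxcl10 and Selp untested, and the stricter filter Il1a as well.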

Other observations

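Ltb, the lymphotoxin beta gene, lies 3062 bp from Tnf and was chosen after its values were seen. It stood at 0.107, 0.134 and 0.129 CPM in WT replicates 1, 2 and 4 and at 0.245, 0.244 and 0.271 CPM in APP/PS1 replicates 1, 2 and 3. The groups did not overlap, and edgeR's quasi-likelihood test gave a log2 fold change of 1.03 with an unadjusted p of 0.0245 and an adjusted p of 0.887. Ltb held under 10 fragments in each library and is too low to judge by the same rule as the 10 genes. Lta, on the other side of Tnf, stood at 0, 0.221 and 0 CPM in WT and 0.0338, 0.163 and 0.154 CPM in APP/PS1.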
